A study of Mus musculus with 16 samples.

Results

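The 10 transcripts described here encode the proteins that stand directly under the Toll-like receptors. They are the co-receptor Ly96 (MD-2), the adaptors Myd88, Tirap, Ticam1 (TRIF) and Ticam2 (TRAM), the kinases Irak1, Irak2, Irak3 (IRAK-M) and Irak4, and the ubiquitin ligase Traf6. They were taken by name, as every probe whose gene name in the array files was one of these 10 symbols, out of 17658 genes tested. The array held 19 such probes, of which 18 passed the filter on dim probes and were well above background on all 16 arrays. The remaining probe, another one for Traf6, was well above background on 1 array and was not used. All 10 genes were therefore tested, 4 of them through a single probe and 6 through the probe with the highest mean signal.

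Lipopolysaccharide (LPS), the outer membrane component of Gram-negative bacteria, is held by Ly96 against the receptor Tlr4. Tirap then brings Myd88 to the receptor at the cell surface, Myd88 gathers Irak4 with Irak1 or Irak2, and these kinases hand the signal to Traf6, which starts the chains of ubiquitin that lead to NF-kB and MAP kinases. From endosomes, Ticam2 couples the receptor to Ticam1, the arm that leads to type I interferon. Irak3 lacks effective kinase activity and is known as a brake on this pathway in macrophages that have already met LPS.

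Total RNA came from macrophages grown from bone marrow of male C57BL/6Jax mice and cultured with M-CSF, the macrophage growth factor, at 10 ng/mL over 9 days. The groups were miR-155 KO macrophages at 0, 6, 12 and 24 h of 100 ng/mL LPS and wild-type (WT) macrophages at the same 4 times, with 2 single-colour arrays per group, and the 0 h cells of each genotype received no LPS. The labels give no other allele or agent and do not say whether the replicates came from separate animals or cultures, so the p-values measure only the spread between these samples, which may be technical. The array had no probe for the transcript that carries miR-155, so its loss in the KO cells was not checked here.

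All 10 macrophage markers looked up, among them Adgre1 and Csf1r, were well above background on all 16 arrays. The summed level of these 10 markers, on a linear scale relative to each array's 75th percentile, ranged from 2954 to 3124 in KO and from 2399 to 3299.7 in WT macrophages at 6 h of LPS, against 1195 to 2131 in KO and 1071 to 1787 in WT macrophages at 0 h. Of the mast cell and basophil list 0 of 5 markers were well above background on both arrays of any group, but every other list had markers well above background in each group. Of the 7 neutrophil markers, Mpo, Camp and Mmp8 were well above background on 16 arrays, Ltf on 13, Ngp on 12, Prtn3 on 6 and Elane on 0. The summed neutrophil level was 0.167 to 0.737 in KO and 0.154 to 0.684 in WT macrophages at 24 h, against 0.603 to 2.29 in KO and 0.592 to 3.31 in WT macrophages at 0 h. The dendritic list (5 of 6 markers well above background at 24 h) summed to between 1.63 and 4.98 in KO and between 1.71 and 6.71 in WT macrophages at 24 h, against 7.30 to 16.6 in KO and 6.48 to 26.5 in WT macrophages at 0 h. Both ends of its range thus lay lower at 24 h in both genotypes, without overlap in KO and with overlap in WT macrophages. These ranges do not pair arrays by replicate number, so the overlap does not show a smaller fall in WT. The endothelial list (3 of 4 markers well above background at 6 h) summed to between 1.95 and 6.22 in KO and between 2.71 and 5.33 in WT macrophages at 6 h, against 0.204 to 0.261 in KO and 0.240 to 0.280 in WT macrophages at 0 h. The stromal list (4 of 5 markers well above background at 6 h) summed to between 1.17 and 1.71 in KO and between 0.974 and 1.61 in WT macrophages at 6 h, against 0.177 to 0.214 in KO and 0.212 to 0.222 in WT macrophages at 0 h. The high sums of these last 3 lists rest mostly on 1 marker each. The highest log2 level on any array was 4.69 for Itgax and at most 0.73 for the other dendritic markers. It was 2.56 for Kdr and at most -1.88 for the other endothelial markers, and 0.52 for Pdgfrb and at most -0.91 for the other stromal markers. Lymphocyte and erythroid lists summed to below the array's 75th percentile on every array. The part of these shifts in the changes below was not tested, and in bulk RNA a change in the mix of cells and a change in RNA per cell cannot be told apart.

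The locus deleted in the KO mice makes 2 mature miRNAs, shown here because reported targets of either arm lie in this pathway. Myd88 has been reported as a target of the 5p arm, and in human plasmacytoid dendritic cells the 3p arm has been reported to repress IRAK3. Both members of the miR-146 family, which have been reported in human cells to target IRAK1 and TRAF6, are shown beside them for their seed. Sequences are from RefSeq (GRCm38.p6), 5′ to 3′, with the seed, bases 2 to 8, in capitals.
mmu-miR-155-5p: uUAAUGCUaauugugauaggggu
mmu-miR-155-3p: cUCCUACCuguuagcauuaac
mmu-miR-146a-5p: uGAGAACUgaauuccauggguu
mmu-miR-146b-5p: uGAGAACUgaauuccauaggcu
The 2 arms of miR-155 carry different seeds, and miR-146a and miR-146b share the seed GAGAACU. The levels of these 4 miRNAs were not measured here.

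Levels below are log2 processed intensities minus the 75th percentile of the same array, so 0 is the level of that percentile, and the levels of different probes are not set against each other. A change is a difference of these log2 levels with its standard error (SE) from limma, and a gene is called where its Benjamini-Hochberg adjusted p over all 17658 genes is under 0.05. Where values of single arrays are given, those of replicate 1 come first. The arrays of replicate 1 and those of replicate 2 were read in separate scan sessions, with 4 arrays on each slide. Same-numbered arrays deviated together (correlations from 0.40 to 0.84 over 28 pairs of groups), so the fit with the replicate number as a block is given where it changes a call.

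After 6 h of LPS, 5 of the 10 transcripts had changed in KO macrophages and the same 5 in WT macrophages. Myd88, Irak2, Irak3 and Ly96 were higher and Irak4 was lower. The background was 26.0% of all genes called in KO and 25.4% in WT macrophages (higher 12.3% and 12.6%, lower 13.8% and 12.8%). The median change of the 10 transcripts was 1.27 in KO and 1.10 in WT macrophages, beside a median of 0.01 and 0.06 over all genes. With the replicate block, 8 of 10 were called in KO and 6 of 10 in WT macrophages at 6 h, where 43.7% and 45.6% of all genes were called. With normexp background correction in place of the scanner software's own, none of the 10 was called in any comparison of LPS times. The extreme local background of single spots was also capped, an alternative chosen after seeing the data. That fit called 4 in KO and 5 in WT macrophages at 6 h. The share of all genes called is not given for either fit, so these counts do not set the members apart from other genes.

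At 12 h, 4 transcripts were called higher in KO macrophages (Myd88, Irak2, Irak3 and Ly96), where 19.4% of all genes were called and 9.49% were higher. In WT macrophages 5 were called higher, the same 4 with Ticam1, and 19.3% of all genes were called (9.68% higher). At 24 h, 2 were called higher in KO macrophages (Myd88 and Irak3; 9.91% of all genes called, 4.97% higher) and 4 in WT macrophages (Myd88, Irak2, Irak3 and Ly96; 11.0% of all genes called, 5.61% higher). With the replicate block, 4 were called in KO macrophages at 24 h, beside 24.1% of all genes. None of the 10 was called lower at 12 or 24 h.

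**Figure D1:**
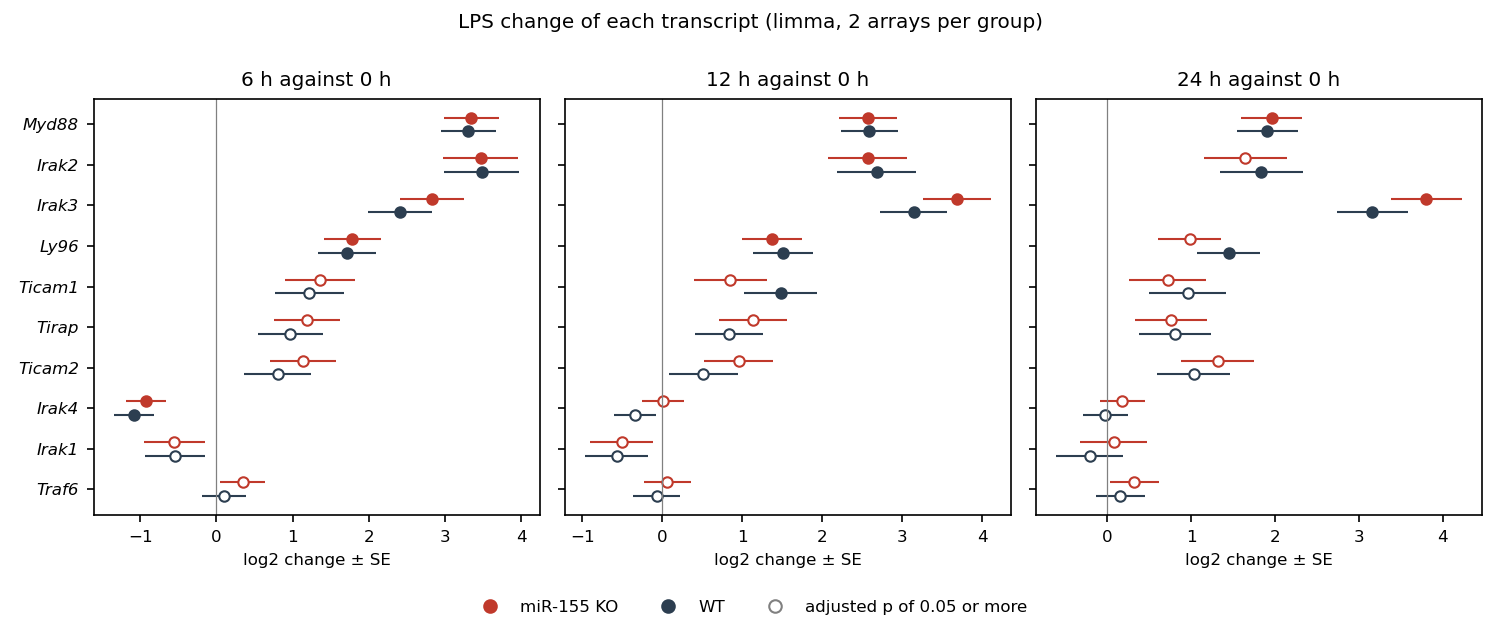
Log2 change ± SE of each transcript against 0 h at 6, 12 and 24 h of LPS in miR-155 KO and WT macrophages (2 arrays per group); filled points passed an adjusted p of 0.05. Myd88 and Irak2 move left with time, at 3.34 and 3.47 in KO macrophages at 6 h, and Irak3 moves right, to 3.80 in KO and 3.16 in WT macrophages at 24 h.

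Ly96, which holds LPS against Tlr4, rose after LPS in both genotypes. Its probe crosses a splice junction, since its 60 bases lie within mm9 chr1:16696289-16699561 on the plus strand. The sequence reads as coding, which here and below means only that it has a reading frame free of stop codons. Such a frame does not by itself show that a probe is coding. The Ly96 probe is shown because it is the only one for this gene.
Ly96 probe: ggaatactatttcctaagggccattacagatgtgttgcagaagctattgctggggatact
The log2 level of Ly96 in KO macrophages was 3.37 and 2.77 at 0 h, 4.48 and 5.22 at 6 h, 4.15 and 4.74 at 12 h, and 4.07 and 4.04 at 24 h. In WT macrophages it was 3.28 and 2.77 at 0 h, 4.50 and 4.97 at 6 h, 4.26 and 4.82 at 12 h, and 4.37 and 4.57 at 24 h. Every array after LPS lay above both 0 h arrays of its genotype, and the spread between replicates at 6 h was wider in KO macrophages. The change at 6 h was 1.78 ± 0.38 in KO (limma adjusted p = 0.00583) and 1.71 ± 0.38 in WT macrophages (limma adjusted p = 0.00738). At 12 h it was 1.37 in KO (limma adjusted p = 0.0272) and 1.51 in WT macrophages (limma adjusted p = 0.0182). At 24 h the change of 1.45 was called in WT macrophages (limma adjusted p = 0.0334), and the value in KO macrophages was 0.99 (limma adjusted p = 0.144). These genotype responses at 24 h differed by -0.46 (KO minus WT, 95% interval -1.64 to 0.72), which did not pass the test. The 6 h and 12 h calls were lost without the 0 h or the LPS array of replicate 2 (limma adjusted p from 0.0529 to 0.197), the 24 h call in WT without any of its 4 arrays (0.0600 to 0.219) or without the filter on dim probes (0.0595), and the 12 h call in KO under quantile normalization (1.01, limma adjusted p = 0.0510).

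Myd88, the adaptor shared by all Toll-like receptors but Tlr3 and by the IL-1 receptor family, was highest at 6 h. In KO macrophages its log2 level was 3.07 and 2.63 at 0 h, 6.08 and 6.30 at 6 h, 5.23 and 5.62 at 12 h, and 4.46 and 5.16 at 24 h. In WT macrophages it was 2.96 and 2.63 at 0 h, 6.16 and 6.05 at 6 h, 5.02 and 5.75 at 12 h, and 4.41 and 5.0 at 24 h. In both genotypes the 6 h arrays were the highest, the 24 h arrays lay between those of 0 h and 6 h, and no array after LPS overlapped those of 0 h.

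Myd88 was 10.2-fold higher in KO (log2 change 3.34 ± 0.36, limma adjusted p = 0.000128) and 9.90-fold higher in WT macrophages at 6 h (3.31 ± 0.36, limma adjusted p = 0.000135). At 12 h the change was 2.58 in KO and 2.59 in WT macrophages, and at 24 h it was 1.96 (limma adjusted p = 0.00675) and 1.91 (limma adjusted p = 0.00712). These calls at 6 h and 12 h passed in each of the 16 fits without 1 array. The 24 h calls were lost without the 24 h or the 0 h array of replicate 2, in KO (changes of 1.62 and 1.74, limma adjusted p = 0.0707 and 0.0656) and in WT macrophages (1.61 and 1.74, limma adjusted p = 0.0804 and 0.0663).

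Between 6 and 24 h Myd88 fell in both genotypes, by 1.38 in KO (limma adjusted p = 0.0319) and by 1.40 in WT macrophages (limma adjusted p = 0.0348). The background was 12.9% of all genes called for 24 h against 6 h in KO and 10.5% in WT macrophages (lower 5.81% and 4.86%). These falls missed the threshold under quantile normalization (limma adjusted p = 0.0807 in KO and 0.0727 in WT), under scaling to the median (0.0592 and 0.0648) and without the filter on dim probes (0.0575 and 0.0607). They were also lost without either 6 h array or the 24 h array of replicate 1 of the genotype (0.0986 to 0.225), and in WT without its 24 h array of replicate 2 (0.0586). The probe lies at mm9 chr9:119245322-119245381 on the minus strand.

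The promoter window of Myd88 (RefSeq, GRCm38.p6, chr9:119339969-119340268, minus strand, 250 bases before to 50 after the annotated start) is shown because it was the only one of the 11 windows of 8 members to hold the interferon response motif GAAANNGAAA. Capitals mark the match, from -40 to -31 relative to the start, on the gene's strand.
Myd88 promoter: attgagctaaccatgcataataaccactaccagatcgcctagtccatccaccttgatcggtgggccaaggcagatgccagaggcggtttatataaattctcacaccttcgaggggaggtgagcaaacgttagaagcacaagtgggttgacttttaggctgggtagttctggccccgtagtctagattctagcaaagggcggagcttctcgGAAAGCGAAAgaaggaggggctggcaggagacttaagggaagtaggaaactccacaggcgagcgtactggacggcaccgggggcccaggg
Both strands were searched, and 3.44% of 32851 mouse windows of this length held that motif. The AP-1 motif TGANTCA (7.81% of windows) was found in none of the 11 windows, and the NF-kB consensus (8.46% of windows) only in those of Irak1, given below. A match describes these letters only.

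Tirap, which links Myd88 to the receptor at the plasma membrane, was higher after LPS on both of its probes but was not called. For the probe that stands for the gene (mm9 chr9:34994936-34994995, minus strand), the log2 level in KO macrophages was 0.80 and 0.02 at 0 h, 1.39 and 1.81 at 6 h, 1.43 and 1.66 at 12 h, and 0.83 and 1.52 at 24 h. The WT levels were 1.01 and -0.03 at 0 h, 1.39 and 1.54 at 6 h, 1.04 and 1.62 at 12 h, and 1.06 and 1.53 at 24 h. The 0 h replicates were far apart in both genotypes, although no array after LPS fell below a 0 h array of its genotype. The change at 6 h was 1.19 ± 0.43 in KO (limma adjusted p = 0.0671, and 0.0421 with the replicate block) and 0.97 ± 0.43 in WT macrophages (limma adjusted p = 0.130). Within session 1 the 6 h change was 0.59 in KO and 0.37 in WT macrophages, and within session 2 it was 1.79 and 1.57. With slide as a term Tirap was called at 6 h in both genotypes (1.19 in KO and 1.45 in WT, limma adjusted p = 0.0213 and 0.0170).

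Irak4, the kinase at the head of the chain that Myd88 assembles, was the only one of the 10 called lower. On the probe at mm9 chr15:94397743-94397802 (plus strand) the log2 level in KO macrophages was -0.20 and -0.61 at 0 h, -1.15 and -1.52 at 6 h, -0.41 and -0.39 at 12 h, and -0.19 and -0.26 at 24 h. In WT macrophages it was -0.09 and -0.49 at 0 h, -1.17 and -1.57 at 6 h, -0.64 and -0.62 at 12 h, and -0.26 and -0.35 at 24 h. The 4 arrays at 6 h were the lowest of all 16, and the arrays at 24 h lay within the range of those at 0 h in WT macrophages.

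At 6 h Irak4 was 1.90-fold lower in KO (log2 change -0.92 ± 0.26, limma adjusted p = 0.0261) and 2.12-fold lower in WT macrophages (-1.08 ± 0.26, limma adjusted p = 0.0127). At 24 h against 6 h it was higher by 1.11 in KO (limma adjusted p = 0.0217) and by 1.06 in WT macrophages (limma adjusted p = 0.0297), beside 7.07% of all genes called higher in KO and 5.61% in WT. Within sessions the 6 h change was -0.95 and -0.90 in KO and -1.08 and -1.08 in WT macrophages. A second probe, which crosses a splice junction (within mm9 chr15:94384447-94385174, plus strand) and reads as coding, is shown because it gave the same size of change with a wider spread.
Irak4 second probe: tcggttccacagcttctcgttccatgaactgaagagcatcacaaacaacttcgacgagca
On this probe the 6 h change was -0.92 ± 0.66 in KO and -0.81 ± 0.66 in WT macrophages, which was not called. The mean of the 2 probes was not called either (-0.92 in KO and -0.94 in WT, limma adjusted p = 0.160 and 0.149). The 6 h calls were also lost without the 0 h array of replicate 1 or the 6 h array of replicate 2, in KO (limma adjusted p = 0.154 and 0.160) and in WT macrophages (0.0927 and 0.101). The KO call at 6 h was lost with the capped normexp correction as well (-0.66, limma adjusted p = 0.0775) and without the filter on dim probes (0.0522). The calls for 24 h against 6 h were lost without any of the 4 arrays compared (0.0536 to 0.180), with the capped normexp correction (0.0524 in KO and 0.0576 in WT), for the mean of the 2 probes (0.0997 and 0.146) and, in WT, without the filter on dim probes (0.0588).

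Irak1, the kinase that Irak4 phosphorylates and that is then degraded, was measured by 3 probes that agreed, none of them called at any time. On the probe at mm9 chrX:71260501-71260560 (minus strand) the log2 level in KO macrophages was 3.41 and 2.94 at 0 h, 2.58 and 2.66 at 6 h, 3.04 and 2.29 at 12 h, and 3.65 and 2.86 at 24 h. The WT levels were 3.42 and 2.89 at 0 h, 2.76 and 2.45 at 6 h, 2.75 and 2.42 at 12 h, and 3.30 and 2.59 at 24 h. The 6 h arrays lay below the 0 h arrays in both genotypes without overlap, by 0.55 ± 0.40 in each on average, and the 24 h arrays overlapped those of 0 h. Limma's adjusted p at 6 h was 0.368 in KO and 0.365 in WT macrophages, and 0.0756 and 0.0757 with the replicate block. Over the 3 probes the 6 h change ran from -0.60 to -0.49 in KO and from -0.61 to -0.54 in WT macrophages.

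The promoter window of Irak1 (RefSeq, GRCm38.p6, chrX:74023872-74024171, minus strand) is shown because it held the only match to the NF-kB consensus among the members. Capitals mark the match, from -18 to -9 relative to the start, on the gene's strand. A second annotated window of Irak1 holds the same site.
Irak1 promoter: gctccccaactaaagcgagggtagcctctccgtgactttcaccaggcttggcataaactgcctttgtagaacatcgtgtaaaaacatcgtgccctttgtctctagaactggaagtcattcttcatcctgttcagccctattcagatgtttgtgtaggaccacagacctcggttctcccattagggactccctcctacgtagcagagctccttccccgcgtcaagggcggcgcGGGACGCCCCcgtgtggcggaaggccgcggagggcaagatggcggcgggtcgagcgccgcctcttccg

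Irak2, the kinase that sustains the signal once Irak1 is spent, rose about as far as Myd88 at 6 h and followed a like course. In KO macrophages its log2 level was 1.79 and 1.26 at 0 h, 4.73 and 5.25 at 6 h, 3.79 and 4.39 at 12 h, and 2.58 and 3.75 at 24 h. In WT macrophages it was 1.51 and 1.08 at 0 h, 4.68 and 4.87 at 6 h, 3.70 and 4.25 at 12 h, and 2.54 and 3.72 at 24 h. No array after LPS overlapped those of 0 h, and the 24 h replicates were more than 1 log2 unit apart in both genotypes, with the array of session 1 the lower.

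Irak2 was 11.1-fold higher in KO (log2 change 3.47 ± 0.49, limma adjusted p = 0.000632) and 11.2-fold higher in WT macrophages at 6 h (3.48 ± 0.49, limma adjusted p = 0.000640). At 12 h the change was 2.57 in KO and 2.68 in WT macrophages, and these calls, like those at 6 h, held without any single array. At 24 h it was 1.65 in KO (limma adjusted p = 0.0650, and 0.0176 with the replicate block) and 1.84 in WT macrophages (limma adjusted p = 0.0389). The WT call at 24 h was lost in 7 of the 16 fits that leave out 1 array (limma adjusted p up to 0.308, with a change of 1.25 without the 24 h array of replicate 2) and without the filter on dim probes (0.0651). The KO change was 2.23 without the 24 h array of replicate 1. It was called under quantile normalization (1.56, limma adjusted p = 0.0463) and with slide as a term (2.16, limma adjusted p = 0.00561). The genotype responses of Irak2 at 24 h differed by -0.19 (KO minus WT, 95% interval -1.74 to 1.36), which did not pass the test. For 24 h against 6 h the fall of 1.82 in KO was called (limma adjusted p = 0.0368) and the value in WT macrophages was -1.64 (limma adjusted p = 0.0611, and 0.0153 with the block). The KO fall was lost without either 6 h array of KO or of WT or the KO 24 h array of replicate 1 (limma adjusted p from 0.0529 to 0.235), under scaling to the median (0.0596) and without the filter on dim probes (0.0625). The probe lies at mm9 chr6:113644488-113644547 on the plus strand.

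**Figure D2:**
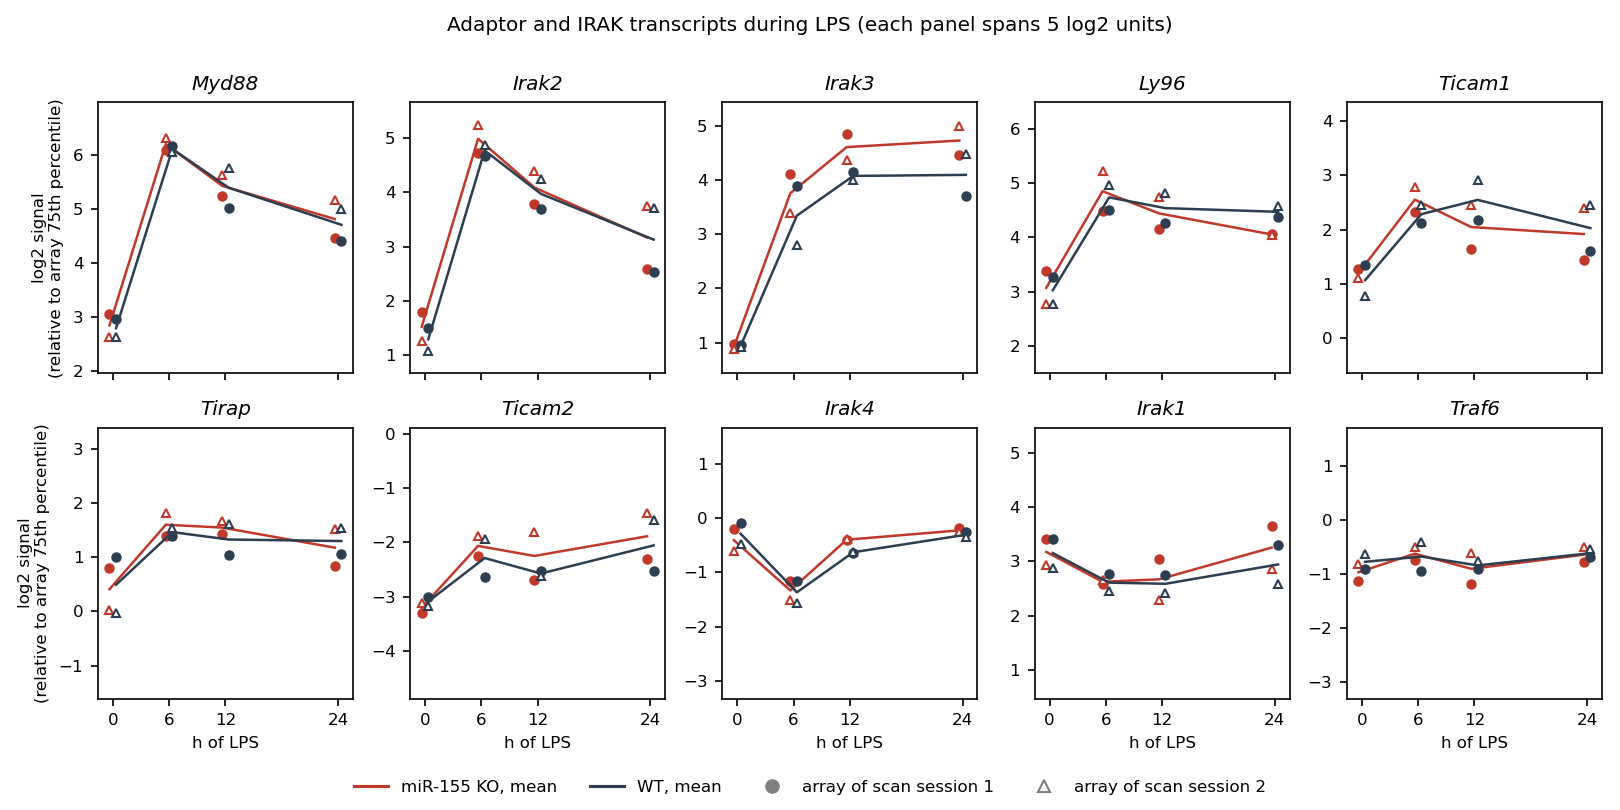
Log2 level of each transcript by hours of LPS, with every array as a point (circle for scan session 1, triangle for scan session 2), the mean of each genotype as a line (miR-155 KO red, WT dark blue) and 5 log2 units in each panel. Myd88 and Irak2 are highest at 6 h, Irak3 stays between 3.70 and 4.99 at 12 and 24 h, Irak4 is lowest at 6 h, and the lines of the genotypes lie farthest apart for Irak3.

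Irak3, the brake among the IRAK proteins, differed in its course from Myd88 and Irak2, with no fall in its mean from 6 to 24 h. On the probe that stands for the gene the highest mean was at 24 h in both genotypes. In WT macrophages that mean was close to the one at 12 h (4.09 and 4.07). In session 1 the 12 h array was the highest in both genotypes. In KO macrophages the log2 level of Irak3 was 0.96 and 0.88 at 0 h, 4.11 and 3.40 at 6 h, 4.85 and 4.36 at 12 h, and 4.46 and 4.99 at 24 h. In WT macrophages it was 0.95 and 0.91 at 0 h, 3.88 and 2.80 at 6 h, 4.14 and 4.0 at 12 h, and 3.70 and 4.48 at 24 h. The 0 h arrays agreed closely, every array after LPS lay at least 1.89 above the 0 h array of the same session and genotype, and the 6 h replicates were the farthest apart.

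The change of Irak3 at 6 h was 2.83 ± 0.42 in KO (limma adjusted p = 0.000795) and 2.41 ± 0.42 in WT macrophages (limma adjusted p = 0.00210). At 12 h it was 3.68 in KO (limma adjusted p = 0.000239) and 3.14 in WT macrophages (limma adjusted p = 0.000623). By 24 h Irak3 was 14.0-fold higher in KO (3.80, limma adjusted p = 0.000353) and 8.94-fold higher in WT macrophages (3.16, limma adjusted p = 0.000938). All 6 calls held without any single array. For 24 h against 6 h the value was 0.97 in KO (limma adjusted p = 0.168) and 0.75 in WT macrophages (limma adjusted p = 0.308), so a further rise between these times did not pass the test.

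All 3 probes of Irak3, at mm9 chr10:119578999-119579058, chr10:119579589-119579648 and chr10:119580091-119580150 on the minus strand, were called at all 3 times in both genotypes. Their changes at 24 h ran from 3.48 to 3.80 in KO and from 2.53 to 3.16 in WT macrophages. On both probes that do not stand for the gene, the WT mean level was higher at 12 h than at 24 h. It was 1.94 and 1.66 on the probe at chr10:119579589-119579648, and 0.11 and -0.04 on the probe at chr10:119580091-119580150. The probe that reads as coding is shown, since it measures the transcript away from the end read by the probe that stands for the gene.
Irak3 coding probe: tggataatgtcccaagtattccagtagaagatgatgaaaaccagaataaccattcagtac
On this probe the change at 6 h was 2.43 ± 0.59 in KO (limma adjusted p = 0.0126) and 2.02 ± 0.59 in WT macrophages (limma adjusted p = 0.0302).

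**Figure D3:**
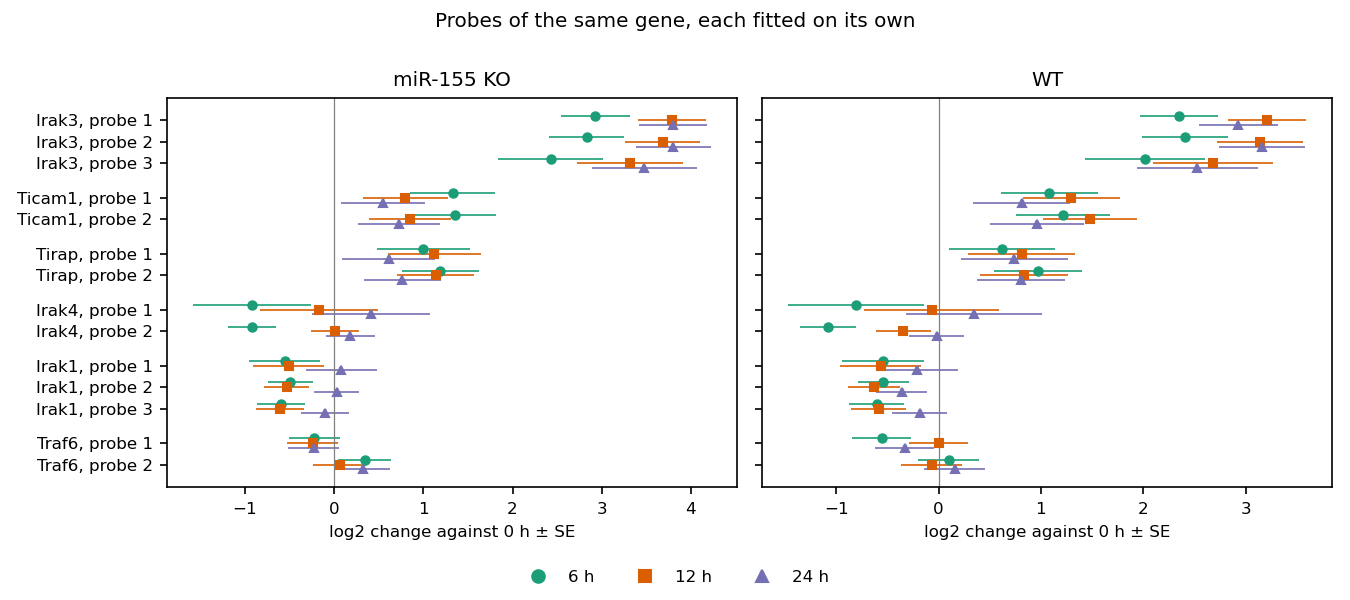
Log2 change ± SE against 0 h for each probe of the 6 genes measured by more than 1 probe, in miR-155 KO (left) and WT macrophages (right), at 6 h (circles), 12 h (squares) and 24 h (triangles). The 3 probes of Irak3 lie between 2.02 and 3.80, those of Irak1 near each other, and the 2 probes of Traf6 on opposite sides of 0 at 6 h.

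Traf6, the ubiquitin ligase on which the Myd88 arm converges, was called at no time. On the probe at mm9 chr2:101540660-101540719 (plus strand) the log2 level ran from -1.19 to -0.50 over the 8 KO arrays and from -0.95 to -0.41 over the 8 WT arrays, and the 6 changes against 0 h from -0.07 to 0.34 with an SE of 0.29. A second probe (mm9 chr2:101542497-101542556) gave -0.22 in KO and -0.56 in WT macrophages at 6 h, opposite in sign to 0.34 and 0.10 on the first, and neither was called. These values bound the 6 h change of the first probe between -0.31 and 0.99 in KO and between -0.55 and 0.75 in WT macrophages (95% intervals).

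The TRIF arm had a single call. Ticam1, its adaptor at Tlr3 and Tlr4, had log2 levels in KO macrophages of 1.28 and 1.11 at 0 h, 2.32 and 2.78 at 6 h, 1.65 and 2.45 at 12 h, and 1.44 and 2.39 at 24 h (probe at mm9 chr17:56409265-56409324, minus strand). In WT macrophages they were 1.35 and 0.78 at 0 h, 2.11 and 2.45 at 6 h, 2.17 and 2.92 at 12 h, and 1.60 and 2.45 at 24 h. All arrays after LPS lay above those of 0 h, and the replicate of session 2 was the higher in every LPS group. The change at 6 h was 1.36 ± 0.46 in KO and 1.22 ± 0.46 in WT macrophages, with limma adjusted p of 0.0519 and 0.0782, and of 0.0123 and 0.0199 with the replicate block. That call was at 12 h in WT macrophages (1.48, limma adjusted p = 0.0459), where the KO value was 0.85 (limma adjusted p = 0.239). The difference between these responses was -0.63 (KO minus WT, 95% interval -2.07 to 0.81) and did not pass the test. It was lost in 10 of the 16 fits without 1 array (limma adjusted p from 0.0538 to 0.279), under scaling to the median (0.0537), without the filter on dim probes (0.0770) and for the mean of the 2 probes (0.0596), which share 40 of their 60 bases and are no independent check. With slide as a term Ticam1 was called at 12 h in KO macrophages too (1.62, limma adjusted p = 0.0159).

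Ticam2, which brings Ticam1 to Tlr4, gave log2 levels in KO macrophages of -3.30 and -3.11 at 0 h, -2.25 and -1.88 at 6 h, -2.69 and -1.81 at 12 h, and -2.31 and -1.46 at 24 h. In WT macrophages they were -3.00 and -3.17 at 0 h, -2.64 and -1.94 at 6 h, -2.53 and -2.62 at 12 h, and -2.53 and -1.58 at 24 h. Every array after LPS was higher than both 0 h arrays of its genotype. The change was 1.14 at 6 h, 0.96 at 12 h and 1.32 at 24 h in KO macrophages and 0.80, 0.52 and 1.03 in WT macrophages, each with an SE of 0.43, and limma called none of the 6 (adjusted p from 0.0823 to 0.484). With the replicate block 4 of them were called, at 6, 12 and 24 h in KO (limma adjusted p = 0.0134, 0.0338 and 0.0124) and at 24 h in WT macrophages (0.0332). Whether the difference between sessions comes from the cells or the scan was not tested.

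KO and WT macrophages were then compared at each time, which asks whether these transcripts depend on miR-155. None of the 10 was called at 0, 6, 12 or 24 h, over the average of the 4 times, or in the joint F test of the LPS response, with or without the replicate block. The background was 0% of all genes called at 0, 6 and 24 h and in the F test, 0.0113% at 12 h and 0.0170% for the average. Over the 10 genes, each on the probe that stands for it, 0 of 50 differences had an unadjusted p under 0.05 in limma, and the smallest adjusted p was 1.0 (0.904 with the block). On the Irak3 probe at mm9 chr10:119579589-119579648, the averaged difference was 0.43 with an unadjusted limma p of 0.0456 (adjusted p = 0.9999).

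The 40 differences at single times ran from -0.50 (Ticam1 at 12 h) to 0.63 (Irak3 at 24 h), and those averaged over the 4 times from -0.09 (Ly96) to 0.39 (Irak3). The 95% intervals of the averaged differences lay between -0.56 and 0.86 on the log2 scale over the 10 genes, and all included 0. They were narrowest for Irak4 (-0.24 to 0.35) and Traf6 (-0.38 to 0.27). For Myd88 the averaged difference was 0.07 (95% interval -0.33 to 0.47), and for Irak1 0.11 (-0.33 to 0.54).

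**Figure D4:**
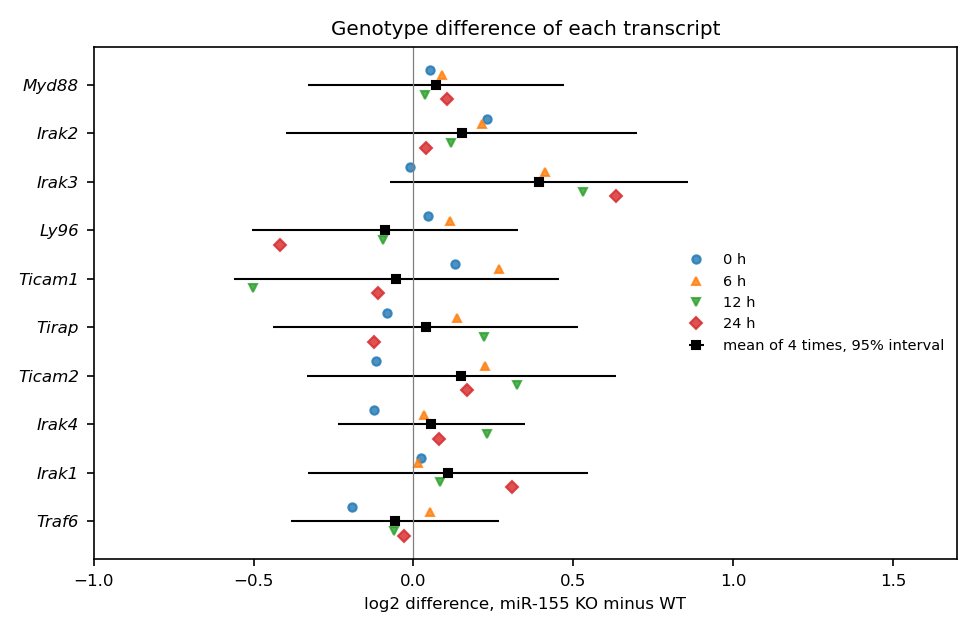
Difference in log2 level, miR-155 KO minus WT, of each transcript at 0, 6, 12 and 24 h (coloured points) and averaged over the 4 times (black squares with 95% intervals). Every interval includes 0, and the interval of Irak3, from -0.07 to 0.86, reaches highest.

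For Irak3 the averaged difference was 0.39 ± 0.21 (95% interval -0.07 to 0.86, limma adjusted p = 1.0). Between arrays of the same time and session, the KO array was higher in 6 of 6 pairs after LPS, by 0.23 and 0.60 at 6 h, 0.71 and 0.36 at 12 h, and 0.76 and 0.51 at 24 h. At 0 h these differences were 0.02 and -0.04. The other 2 probes of Irak3 were higher in the KO array of all 6 pairs as well, by 0.44 to 0.84 and by 0.16 to 1.04. The pair at 24 h in session 1 was hybridised on a shared slide (0.76), as was the pair at 0 h in session 1 (0.02), and the other pairs lay on different slides. The KO array was also the higher in 6 of 6 pairs for Irak2 (0.03 to 0.38) and for the probe that stands for Irak4 (0.02 to 0.23). It was the higher in 4 of 6 for the second Irak4 probe, and in 1 of 6 for Ly96. The probes of Irak3 were read on the same arrays and are no independent check. The share of all genes with 6 of 6 such pairs is not given, so these counts do not show a genotype effect.

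The other genes of the pathway, in lists of receptors, ubiquitin and kinase steps, inhibitors and transcription factors, give the setting. Of the 18 receptors and co-receptors tested, 7 were higher and 2 lower in KO and 9 and 2 in WT macrophages at 6 h, with a median change of 1.30 in KO and 1.34 in WT. Over all genes at 6 h, the background for this and the next 4 lists, 12.3% were higher and 13.8% lower in KO and 12.6% and 12.8% in WT macrophages, with medians of 0.01 and 0.06. The receptor counts include 2 genes that passed the filter on dim probes only through the groups where they are high. Il18rap, called higher, was well above background on both arrays only at 6 h, and Tlr5, called lower, only at 0 h. The filter thus favoured the direction of their calls. Tlr1 (3.23 in KO and 3.02 in WT) and Tlr6 (3.18 and 3.13), which pair with Tlr2 to sense bacterial lipopeptides, and Tlr3 (4.67 and 4.72), the sensor of double-stranded RNA, rose. Tlr5, the flagellin receptor, fell at 6 h to a level not well above background in both genotypes. Its measured change was -3.17 in KO (limma adjusted p = 0.0113) and -3.53 in WT macrophages (limma adjusted p = 0.00671). These sizes rest on a 6 h signal not well above background. A bound set by the dimmest probes well above background on each array was at least 3.16-fold lower in KO and at least 2.65-fold lower in WT macrophages. That bound was not tested.

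Of the 22 ubiquitin and kinase steps, 7 were higher and 1 lower at 6 h in KO and likewise in WT macrophages, with a median change of 0.72 in KO and 0.82 in WT, beside 26.0% of all genes called in KO and 25.4% in WT. Peli1, a ubiquitin ligase that acts on the IRAK proteins, rose by 4.03 in KO and 3.99 in WT macrophages, and its relative Peli2 fell by 3.45 in KO and 2.69 in WT macrophages. The kinase Map3k8 rose by 3.02 and 2.92, and Tank, which binds TRAF proteins, by 3.35 and 3.43.

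Of the 22 inhibitors, 12 were higher and 2 lower in KO and 11 and 1 in WT macrophages at 6 h, where 12.3% of all genes were higher and 13.8% lower in KO and 12.6% and 12.8% in WT. Their median change, 2.24 in KO and 2.25 in WT, compares with 1.27 and 1.10 for the adaptors and IRAKs and with 0.01 and 0.06 over all genes. Socs1, an inhibitor of cytokine signalling and a reported miR-155 target, rose by 7.29 in KO and 7.65 in WT macrophages, Traf1 by 8.06 and 8.36, and the deubiquitinase Tnfaip3 (A20) by 4.26 and 4.45. At 24 h Socs1 remained higher by 5.15 in KO and 5.70 in WT macrophages, and Tnip1, which works with A20, by 2.87 and 2.58.

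Of the 13 transcription factors, 7 were higher and 0 lower in KO and 6 and 1 in WT macrophages at 6 h, with a median change of 1.67 in KO and 1.32 in WT, against the same background of 12.3% higher and 13.8% lower in KO and 12.6% and 12.8% in WT. Nfkb2 (4.23 in KO and 4.30 in WT) and Nfkb1 (3.34 and 3.32), which encode subunits of NF-kB, and Irf7 (6.83 and 7.13), a factor of the interferon arm, rose. Of 9 pathway genes reported as miR-155 targets, Myd88 among them, 6 were higher and 1 lower in both genotypes at 6 h, to be read against that background too, the last being Inpp5d (SHIP1), which fell by 2.85 in KO and 3.21 in WT macrophages. No gene of these 5 lists was called between KO and WT at any time, with or without the replicate block.

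**Figure D5:**
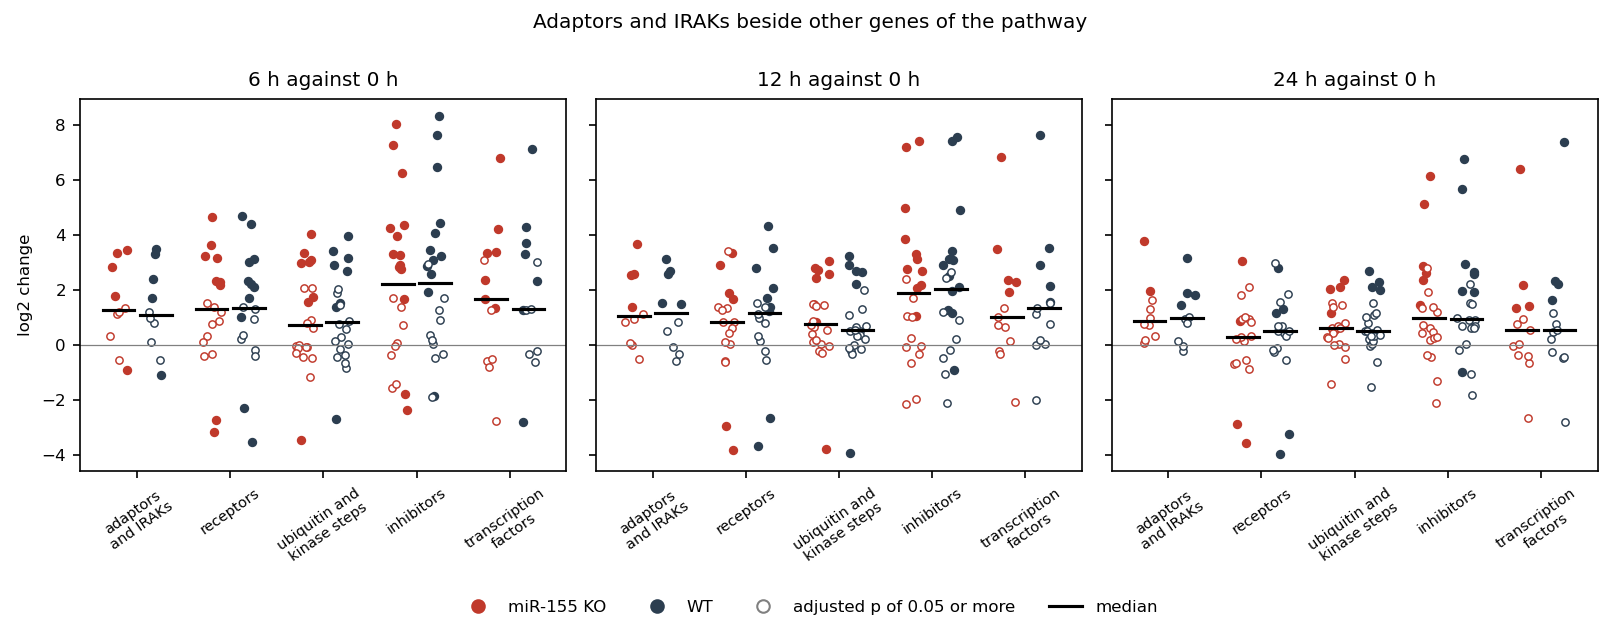
Log2 change against 0 h of the 10 adaptor and IRAK transcripts beside 18 receptors, 22 ubiquitin and kinase steps, 22 inhibitors and 13 transcription factors of the pathway, with 1 point per gene in miR-155 KO (left of each pair) and WT macrophages (right). Black bars are medians, 1.27 in KO and 1.10 in WT for the adaptors and IRAKs at 6 h, and filled points passed an adjusted p of 0.05.

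The genes whose course was most like that of the 3 members with the widest range were found by Pearson's r over the 8 group means, among 9496 genes with a range of at least 1. The nearest to Myd88 were Tagap1 (r = 0.9994), Il6 (0.9992) and Ube2f (0.9991), and 122 genes reached 0.99. Il6 was not well above background at 0 h. The nearest to Irak2 were Marcksl1 (r = 0.9988), Heatr6 (0.9988) and Ubr4 (0.9987), and 91 genes reached 0.99. The nearest to Irak3 were Mrpl32 (r = 0.9991), Mkks (0.9976) and Tspan3 (0.9974), and 20 genes reached 0.99. These correlations describe 8 means from the same 16 arrays and carry no test.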

How the data were processed

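Single-colour (Cy3) Agilent arrays, 16 on 4 slides, measured total RNA of 8 groups. Per the file headers, the deposited intensity of each spot is the processed signal of Agilent Feature Extraction 10.5.1.1 after background subtraction and detrending. The same files hold that software's flags for outliers, saturation and signal well above background. The deposited series table holds log2 values whose upper quartile is 8.78 to 8.79 on every array and which correlate with the scanner log2 at r = 1. Its centring beyond that was not given in the sources used here, and it served as an alternative. The arrays' 75th percentile signal was 270 to 727, and 56.0% to 67.6% of spots were well above background. The number of arrays limits the precision.

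From the scanner files, 1639 control spots and 61 to 108 outlier spots per array were removed (0 were saturated), spots of 1 probe were averaged as log2 values, and each array was scaled by subtracting its 75th percentile. Probes well above background on both arrays of at least 1 group were kept (26854), and each of the 17658 genes was represented by its brightest probe on average. RefSeq names were found for 26869 probes by accession, for 5559 by symbol and for 891 by synonym, while 7758 kept their deposited name. Positions of probes are those of the files (mm9). A model of the 8 group means was fitted in limma 3.58.1 (R 4.3.3), with moderated variances on 8 residual and 2.29 prior degrees of freedom and Benjamini-Hochberg adjustment across all genes. The fit was also run on simulated data whose noise was independent between arrays. Such data lack the shared deviations described next, so that run could not check their effect on the calls. The replicate number marks a scan session per the file headers, and same-numbered arrays deviated together in 28 of 28 pairs of groups (r 0.40 to 0.84, median 0.58). The fit with it as a block has 7 residual degrees of freedom.

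The members, the 5 pathway lists, the marker lists and the tests were chosen with earlier results of these data known. All 10 members were named. Of each list, up to 4 genes called in both genotypes each way, by the mean of the KO and WT changes, could be named, and the text prints a part of them. The alternatives were normexp background correction (offset 50), quantile normalization, scaling to the median, the filter on dim probes, the mean of a gene's probes, each probe on its own, the series table, the replicate block, slide as a term and as a random block, and leaving out each array. A normexp correction with the local background capped at its 99.9th percentile was chosen after seeing the data. Promoters, motifs and miRNAs are from RefSeq (GRCm38.p6), where 8 members had a window.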

Additional observations from a re-analysis of the deposited data

How the results depend on the processing

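No member was called between KO and WT, or in the F test, under any alternative, each with 0 of 10 called. For LPS, normexp background correction left 0 called in all 8 comparisons and turned the change of Ly96 at 12 h in KO macrophages from 1.37 to -0.28. On the 12 h arrays of replicate 1, the highest local background was 722571 (KO) and 362027 (WT), against medians near 20 on every array, and with the local background capped the counts differed by over 1.5 times only for 24 h against 6 h in WT macrophages (1 called). With the replicate block, 8 members were called in KO at 6 h and 4 at 24 h. With slide as a term 8, 7 and 5 were called in KO at 6, 12 and 24 h and 8 and 7 in WT at 6 and 24 h, and with slide as a random block (correlation 0.60) 8, 7 and 6 in KO and 8 and 7 in WT. Over all genes the slide term called 46.2%, 31.3% and 25.0% in KO at 6, 12 and 24 h and 47.7% and 29.4% in WT at 6 and 24 h, and the random block 46.3%, 34.4% and 26.0% in KO and 47.3% and 30.0% in WT. Without the filter on dim probes, 2 were called in WT at 24 h, and for 24 h against 6 h 1 in KO and 0 in WT. For 24 h against 6 h, scaling to the median gave 1 in KO and 1 in WT, and quantile normalization and the mean of a gene's probes each gave 1 in WT. Over all genes, 24 h against 6 h gave 2522 calls in KO and 2042 in WT under quantile normalization. Scaling to the median gave 2052 and 1697, and the scaling used 2275 and 1848. No such number is given for the normexp, capped, unfiltered or probe-mean fits, or for those without 1 array. Their counts therefore do not show whether the members moved more than other genes. The cause of these moves was not tested. Leaving out 1 array gave 3 to 6 members in KO and 3 to 5 in WT at 6 h, 3 to 4 and 3 to 5 at 12 h, 1 to 3 and 1 to 4 at 24 h, and 0 to 3 in either for 24 h against 6 h. Against the scaling used, the median of all genes shifted by -0.20 to 0.22 under quantile normalization and by -0.01 to 0.17 under scaling to the median. For 24 h against 6 h in WT macrophages, 63.7% of called genes were higher under quantile normalization and 53.6% as reported. Of 1560 single values under the other alternatives, 1462 stayed on their side of the threshold, 52 lost a call, 45 gained 1 and 1 reversed. The reversed value, Ly96 at 12 h in KO macrophages with normexp, lost its call as well. Of 2080 under 1 array left out, 57 lost a call, 10 gained 1 and 0 reversed. A value not called in either fit counts as staying even where its sign changed, and 186 such sign changes were recorded. With 2 arrays per group, the spread between replicates limits what could be called.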
